A study of Mus musculus with 10 samples.

Results

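Genes that make or use up the coenzyme NAD were followed through the ovaries of young mice, aged mice and aged mice given CEFFE, a cell-free extract of fat tissue. They were the entries of the deposited gene table named Cd38, Bst1, Sarm1, Parp1, Parp2, Nampt, Naprt, Nmnat1, Nmnat2 and Nmnat3, which is 10 of 55487 genes. Each name matched 1 entry, and all 10 passed the filter on low counts that left 18956 genes to be tested. RNA was sequenced from 10 ovary samples of C57BL/6J mice, labelled Control (n = 4), Aged (n = 3) and Aged+CF (n = 3). Control mice were 8 weeks old. The sample labels put both aged groups at 11 months, whereas the study's methods give 10 months. Aged+CF mice received 200 μL of CEFFE at 3 μg/μL of protein into the tail vein every 2 days for 2 weeks, and both other groups received saline in the same way. All 3 groups had 10 IU of PMSG, a hormone that drives follicle growth, 48 h before the ovaries were taken. The labels do not say whether each sample came from a different mouse, so that p-values measure the spread between these samples. Samples are named here by their group and the number in their title.

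NAD carries electrons in metabolism and is also broken down by signalling enzymes. The nicotinamide they release is recycled in the salvage pathway, where NAMPT makes nicotinamide mononucleotide (NMN) and the NMNAT enzymes turn NMN into NAD. NAPRT starts a parallel route from nicotinic acid. On the consuming side stand the NAD glycohydrolases CD38, BST1 and SARM1, and the poly(ADP-ribose) polymerases PARP1 and PARP2, which use NAD at DNA breaks.

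The depth was 15761789 to 21318254 counted reads per ovary. Markers of the ovary (oocyte, granulosa and luteal genes) were detected in all 10 libraries. Aged ovary 34 stood apart: its summed B and plasma cell markers reached 186.2 CPM (counts scaled to a common library size), against 8.75 to 23.7 in the other Aged ovaries, and its oocyte markers 12.3 CPM against 88.1 and 98.1. Oviduct epithelium markers summed to 394.1 CPM in Control 33 and 304.8 in Aged 34, and to between 6.07 and 34.9 in the other 8 libraries. Calls that change without either of these libraries are given beside the result.

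The proximal promoters of Nampt and Parp1 are shown because these genes were the most abundant members and moved in opposite directions with age. Both are the 250 bases before the RefSeq start site in mouse build GRCm38.p6, printed along the gene's strand, with each GC box (GGGCGG on either strand) and each E-box (CACGTG) in capitals.
Nampt chr12:32820085-32820334, plus strand: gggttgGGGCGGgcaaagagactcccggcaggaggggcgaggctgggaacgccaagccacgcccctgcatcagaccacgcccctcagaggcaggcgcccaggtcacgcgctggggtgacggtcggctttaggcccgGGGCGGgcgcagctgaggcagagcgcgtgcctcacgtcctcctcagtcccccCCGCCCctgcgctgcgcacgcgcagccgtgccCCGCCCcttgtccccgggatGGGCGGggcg
Parp1 chr1:180568641-180568890, plus strand: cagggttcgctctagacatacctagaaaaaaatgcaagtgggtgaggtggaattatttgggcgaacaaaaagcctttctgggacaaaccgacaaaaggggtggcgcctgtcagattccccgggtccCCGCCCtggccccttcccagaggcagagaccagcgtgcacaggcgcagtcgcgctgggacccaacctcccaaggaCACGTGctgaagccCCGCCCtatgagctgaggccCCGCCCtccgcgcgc
The Nampt window held 5 GC boxes, 27 CpG dinucleotides and 75.6% G and C. It lay within the GENCODE gene span but covered no annotated exon. The Parp1 window held 3 GC boxes, 1 E-box, 16 CpG and 61.6% G and C, and ended before the first annotated exon. The GC boxes and the E-box did not overlap. Among all 32851 RefSeq promoter windows of this length, 32.7% held a GC box and 6.02% an E-box, and the medians were 52.4% G and C and 6 CpG. Neither window held a CCAAT box (CCAAT), TATA box (TATAAA), cAMP response element (TGACGTCA), AP-1 site (TGANTCA) or NR5A site (AAGGTCA) on either strand, which were in 33.8%, 12.4%, 1.55%, 6.75% and 4.08% of all windows. The Cd38 window had 48.8% G and C and 1 CpG, and all its 250 bases lay in an exon annotated by GENCODE.

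The level per length of the members, in deposited FPKM (fragments scaled by gene length and library total), covered over 2 orders of magnitude. In Control ovaries the order was Parp1 at 31.5 ± 1.77 (SD, n = 4), Nampt at 14.9 ± 1.72, Parp2 at 5.80 ± 0.265, Naprt at 4.83 ± 0.784, Cd38 at 3.46 ± 0.324, Nmnat1 at 2.38 ± 0.299 and Nmnat3 at 1.001 ± 0.111 FPKM. Bst1 at 0.199 ± 0.0620, Sarm1 at 0.188 ± 0.0175 and Nmnat2 at 0.169 ± 0.0886 FPKM came last. Ranges over the ovaries overlapped between the neighbours Parp2 and Naprt and among the last 3 genes, and were apart for the other neighbours. In Aged ovaries Nampt had the highest mean, 37.2 ± 22.6 FPKM (n = 3), over a range that overlapped that of Parp1 at 18.6 ± 1.89, and Cd38 had the third-highest mean, 6.24 ± 0.408, overlapping Parp2 at 5.58 ± 0.911 FPKM. In Aged+CF ovaries Parp1 was first again at 26.0 ± 2.84 FPKM (n = 3), followed by Nampt at 15.7 ± 1.67, and the remaining order was that of Control except that Nmnat2 stood above Sarm1. The gene lengths behind the FPKM were 1.05 (Nampt) to 1.95 (Sarm1) times the merged exon lengths of GENCODE M21. With the latter lengths, Nmnat1 at 3.77 and Cd38 at 3.69 overlapped in Control, Sarm1 came before Bst1 there, and in Aged ovaries Cd38 at 6.66 came after Parp2 and Naprt.

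**Figure D1:**
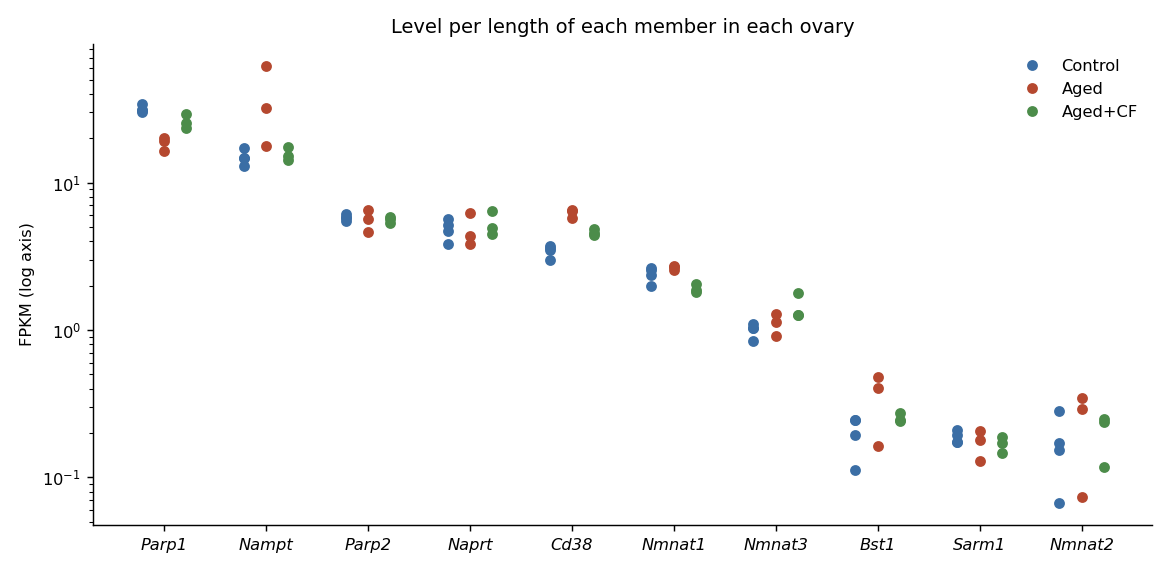
Deposited FPKM (log axis) of the 10 genes, ordered by their Control mean, with 1 point per ovary in 3 groups (Control n = 4, Aged n = 3, Aged+CF n = 3). Parp1 and Nampt lie above the other genes in all groups, and Bst1, Sarm1 and Nmnat2 lie below 0.5 FPKM.

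The first comparison, Aged against Control, asked how the genes differed with age. Nampt and Cd38 rose and Parp1 fell, and the other 7 genes did not pass the test. In edgeR's quasi-likelihood test these 3 of 10 genes passed at a Benjamini-Hochberg adjusted p under 0.05, where 15.4% of all tested genes did. At an unadjusted p under 0.05 there were 4 of 10, against 31.6% of all genes, and the same 4 also changed at least 1.5-fold, against 18.2%. DESeq2 called 3 of 10, against 22.6%. The median log2 fold change was 0.28 over the 10 genes and -0.00053 over all tested genes. In 4 of 10 (Cd38, Nampt, Parp1 and Nmnat1) the Aged and Control ovaries did not overlap, as in 27.5% of all genes. In whole-ovary RNA, fewer cells of a type and less RNA per cell cannot be told apart.

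Cd38, the main NAD glycohydrolase of many tissues and abundant on immune cells, lies at chr5:43868553-43912375 in GRCm38 (plus strand, identifier ENSMUSG00000029084). It measured 14.5, 12.2, 13.8 and 15.0 CPM in Control 31, 32, 33 and 34, then 24.8, 31.3 and 26.5 CPM in Aged 31, 33 and 34, and 19.6, 18.8 and 18.3 CPM in Aged+CF 30, 32 and 34. The 3 groups did not overlap, with Aged+CF between Control and Aged. With age Cd38 rose by 0.99 on the log2 scale (SE 0.12, 1.98-fold, edgeR adjusted p = 0.00361). Summed macrophage markers were 523.5 to 596.9 CPM in Control, 844.1 to 1645 in Aged and 752.8 to 869.2 in Aged+CF. Of these 10 markers 5 rose with age, and no defining one was at 0. T and NK cell markers summed to 5.83 to 10.3 CPM in Control, 15.1 to 36.1 in Aged and 9.98 to 11.95 in Aged+CF, and 4 of 7 tested rose with age. The 6 B and plasma cell markers summed to 4.19 to 5.58, 8.75 to 186.2 and 5.39 to 7.63 CPM in the same order of groups, with 4 raised by age. Endothelial markers summed to 366 to 455, 535 to 698 and 467 to 501.5 CPM, and 5 of 6 rose with age. Aged 34 had the highest sum of each of these immune lists, and without it the rise of Cd38 was 1.05 (adjusted p = 0.00237). Luteal markers summed to 6608 to 11890, 15690 to 36800 and 14220 to 22300 CPM in the same order of groups, and all 7 rose with age. The part of immune, endothelial and luteal cell content in the Cd38 difference was not tested.

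Bst1, the other ADP-ribosyl cyclase of the family and a neighbour of Cd38 on the same strand (chr5:43818885-43843986), was scarce, with 10 to 49 reads per ovary. Its exons share 98 bases with Fbxl5 on the opposite strand, and whether counting used strand is not given in the sources used here. It measured 1.05, 0.623, 1.32 and 1.33 CPM in Control 31 to 34, 0.954, 2.61 and 2.70 CPM in Aged 31, 33 and 34, and 1.49, 1.38 and 1.36 CPM in Aged+CF 30, 32 and 34. Aged 31 lay within the Control range while the other Aged ovaries lay above it. The difference with age was 0.94 (SE 0.39), with an edgeR adjusted p of 0.128, and it passed at 1.31 (adjusted p = 0.0327) without Aged 31. Sarm1 (chr11:78472330-78497754, minus strand), best known for degrading NAD in injured axons, stayed between 1.61 and 2.26 CPM in all 10 ovaries. Its log2 fold changes were -0.01 (95% interval -0.51 to 0.48) for Aged against Control and -0.10 (-0.63 to 0.42) for Aged+CF against Aged.

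**Figure D2:**
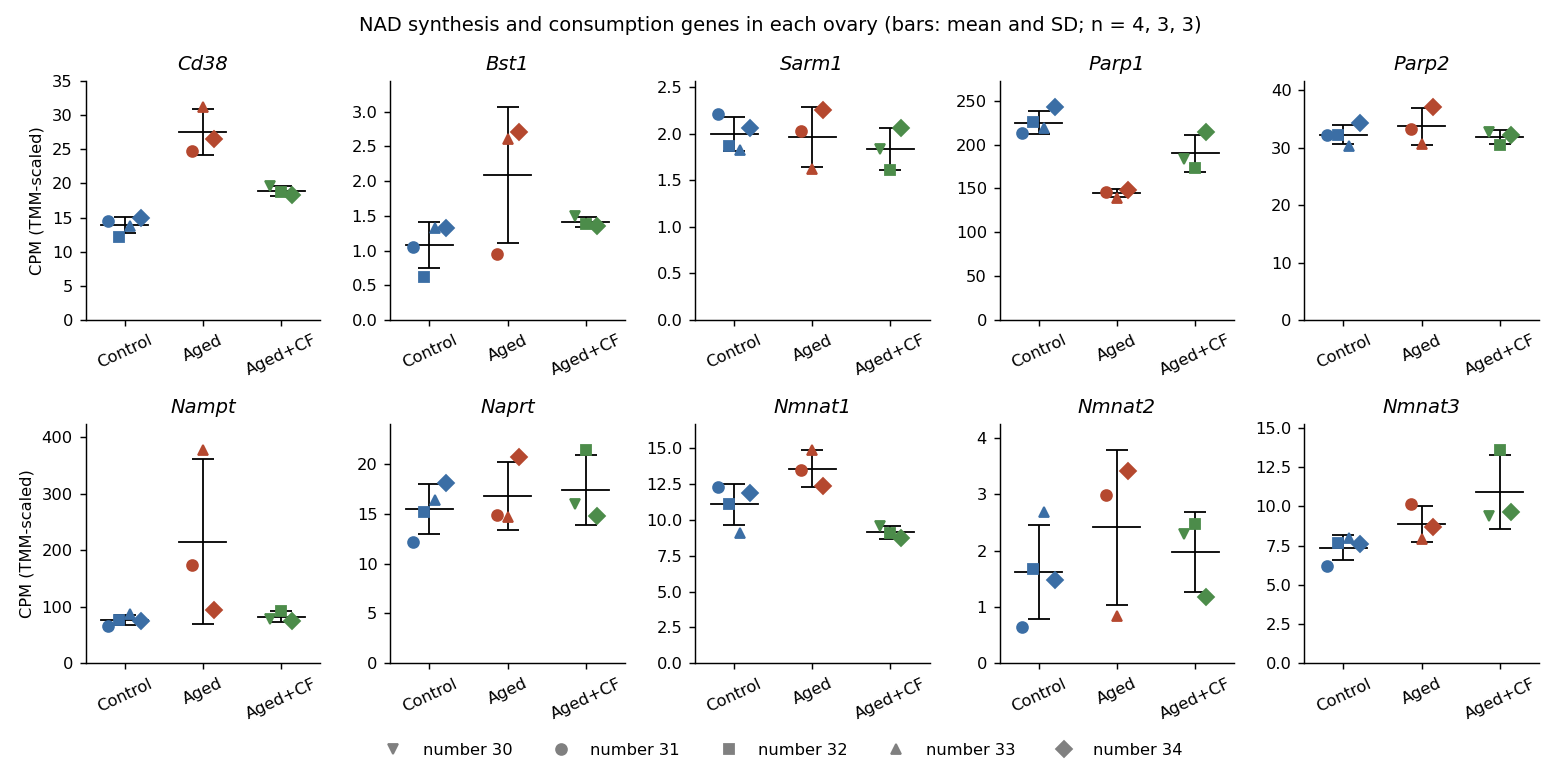
CPM of the 10 genes in each ovary, with the mean and SD of each group (Control n = 4, Aged n = 3, Aged+CF n = 3) and a symbol for the number in the sample title. Cd38 separates all 3 groups, Parp1 is lowest in Aged, and the Aged values of Nampt spread from 93.5 to 378 CPM.

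Parp1 (ENSMUSG00000026496, chr1:180568924-180601254, plus strand), which makes most poly(ADP-ribose) after DNA damage, moved the other way. It measured 213, 225, 219 and 243 CPM in Control 31 to 34, 146, 139.5 and 148 CPM in Aged 31, 33 and 34, and 184, 173 and 214 CPM in Aged+CF 30, 32 and 34. Every Aged ovary lay below every other ovary, and Aged+CF overlapped Control in its highest ovary. With age Parp1 fell by 0.64 on the log2 scale (SE 0.09, edgeR adjusted p = 0.00547), to 0.643 of the Control level. Cell division markers, all 8 detected, summed to 439.2 to 598.9 CPM in Control, 60.5 to 199 in Aged and 226 to 349 in Aged+CF, with 5 of 8 lower with age. Oocyte markers summed to 347 to 471, 12.3 to 98.1 and 131 to 205 CPM in the same order of groups, with 9 of 10 lower with age. Granulosa markers summed to 5143 to 8179, 3367 to 4505 and 2966 to 5140 CPM, and none of the 10 passed edgeR with age. The fall was as large, 0.62 on the log2 scale (-0.62, adjusted p = 0.00505), without Aged 34. The part of dividing cells and oocytes in the Parp1 difference was not tested.

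Parp2, a related polymerase that also acts in base excision repair (chr14:50807841-50821301, plus strand), ranged from 30.3 to 37.2 CPM over all 10 ovaries. Its difference with age was 0.06 on the log2 scale, with a 95% interval of -0.15 to 0.28 that leaves out a change of the size of Parp1. The log2 ratio of Parp2 to Parp1 counts was -2.72, -2.80, -2.85 and -2.83 in Control 31 to 34, -2.13, -2.18 and -1.99 in Aged 31, 33 and 34, and -2.49, -2.50 and -2.73 in Aged+CF 30, 32 and 34. The ratio was higher in every Aged ovary than in any other ovary. As Parp2 itself changed little, the ratio mostly restates the Parp1 differences from the same counts. The difference of 0.697 between Aged and Control had a two-sided exact permutation p of 0.0286, the smallest that 4 against 3 ovaries allow, and 0.257 adjusted over 9 ratio comparisons. Aged+CF against Aged differed by -0.469, with an exact p of 0.1, which is the smallest possible for 3 against 3, and the same adjusted p of 0.257. Per length, Parp2 stood at 0.178 to 0.195 of Parp1 in Control, 0.282 to 0.322 in Aged and 0.194 to 0.229 in Aged+CF, in deposited FPKM.

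Nampt (ENSMUSG00000020572, chr12:32819545-32853349, plus strand), the rate-limiting enzyme of the salvage pathway, had the largest fold change of the 10 genes with age and the widest spread within a group. It measured 66.5, 77.1, 87.0 and 75.2 CPM in Control 31 to 34, 175, 378 and 93.5 CPM in Aged 31, 33 and 34, and 78.9, 93.2 and 75.6 CPM in Aged+CF 30, 32 and 34. Aged 34 lay just above the highest Aged+CF and Control ovaries, while Aged 33 was far above all others. The coefficient of variation was 68.1% in Aged, 11.0% in Control and 11.3% in Aged+CF. Nampt rose with age by 1.49 on the log2 scale (SE 0.36, 2.82-fold, edgeR adjusted p = 0.0234). Without Aged 33 the rise was 0.84 (adjusted p = 0.0406), and without Aged 34 it was 1.89 (0.00243). The call was lost without Control 31, 32 or 34 (adjusted p = 0.0566, 0.0622 and 0.0626) and when only the Aged and Control ovaries were fitted (0.0568).

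The luteal markers were Lhcgr, Ptgfr, Prlr, Akr1c18, Star, Cyp11a1 and Hsd3b1. They summed to 6608 to 11890 CPM in Control, 15690 to 36800 in Aged and 14220 to 22300 in Aged+CF, and all 7 rose with age. Within the Aged group these sums were 26880, 36800 and 15690 CPM in ovaries 31, 33 and 34, the same order as Nampt. Aged+CF 32, with 22300 CPM of luteal markers, had 93.2 CPM of Nampt. Slc12a8, described as an NMN transporter and singled out here after its values were seen, measured 122.6, 191.5 and 8.00 CPM in the same 3 Aged ovaries and 6.36 to 40.2 in Control, with a log2 difference of 2.30 and an edgeR adjusted p of 0.0988 for age, and 2.89 (0.0106) without Aged 34. The part of luteal tissue in the Nampt difference was not tested. The 7 markers of neutrophils, cells known to express Nampt, summed to at most 1.78 CPM in any ovary. None of them passed the filter on low counts, and the part of neutrophils in the Nampt difference was not tested.

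**Figure D3:**
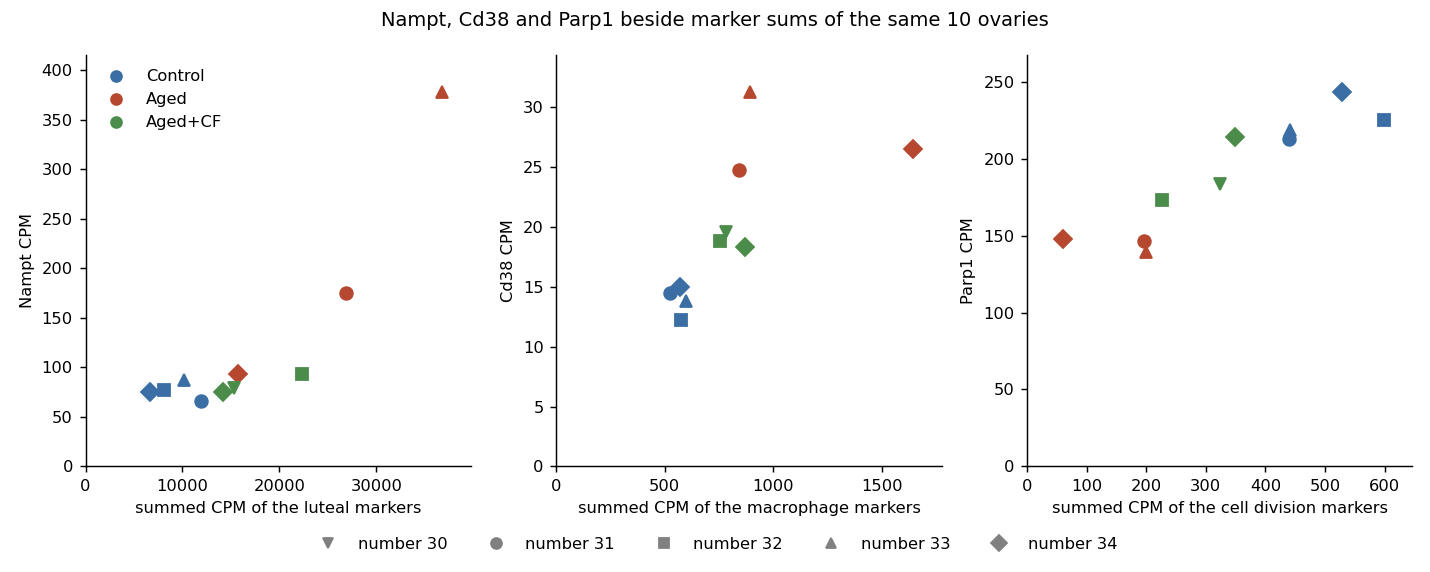
CPM of Nampt against summed luteal markers, of Cd38 against summed macrophage markers and of Parp1 against summed cell division markers, with 1 point per ovary, coloured by group. Aged ovaries 31 and 33 have the highest luteal sums and the highest Nampt, Aged 34 has the highest macrophage sum (1645 CPM), and the Aged ovaries hold the lowest Parp1.

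None of the remaining synthesis genes passed edgeR or DESeq2 with age, or edgeR at an unadjusted p under 0.05. Naprt (chr15:75890956-75894481, minus strand) ranged from 12.2 to 21.4 CPM over all ovaries and differed by 0.12 (95% interval -0.32 to 0.55). Its exons share 277 bases with Eef1d on the same strand, so part of its reads could belong to either gene. Nmnat1 (chr4:149467572-149485202, minus strand), the nuclear NMN adenylyltransferase, measured 12.3, 11.1, 9.08 and 11.9 CPM in Control 31 to 34, 13.5, 14.9 and 12.4 CPM in Aged 31, 33 and 34, and 9.58, 9.08 and 8.72 CPM in Aged+CF 30, 32 and 34. All Aged ovaries stood above all others, though Aged 34 exceeded Control 31 by a narrow margin. The edgeR difference with age was 0.29 (SE 0.14, adjusted p = 0.19). Nmnat3 (chr9:98287435-98420438, plus strand), linked to mitochondrial NAD, measured 6.19 to 8.01 CPM in Control, 7.90 to 10.1 in Aged and 9.40 to 13.6 in Aged+CF. Its difference with age was 0.27 (SE 0.18, edgeR adjusted p = 0.338). Nmnat2 (chr1:152954993-153119261, plus strand), known mainly from neurons, had 11 to 62 reads per ovary and ranged from 0.642 to 3.42 CPM. Its interval for age, -0.62 to 1.78 on the log2 scale, covered a difference in either direction, with coefficients of variation of 51.7% in Control and 57.0% in Aged.

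**Figure D4:**
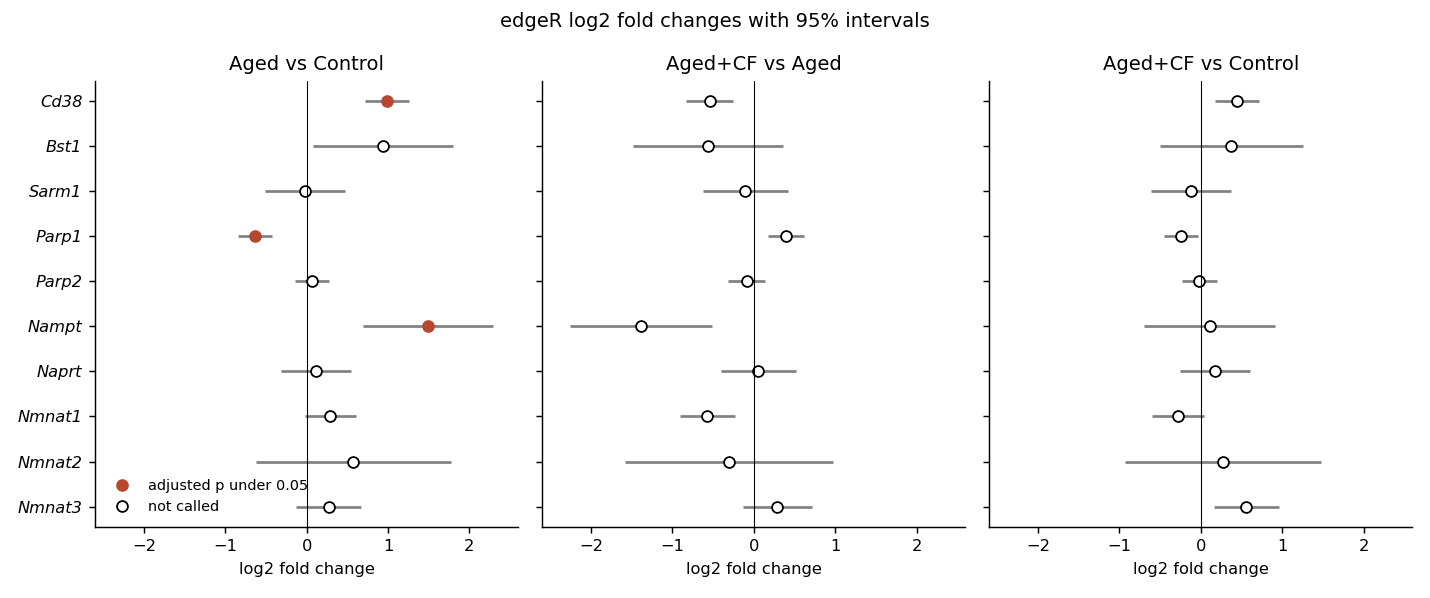
edgeR log2 fold changes of the 10 genes in 3 comparisons, with lines for the 95% intervals and filled points where the adjusted p was under 0.05. Nampt, Cd38 and Parp1 are filled in Aged against Control, and none is filled in the comparisons with Aged+CF.

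The second comparison, Aged+CF against Aged, asked what the extract changed in aged ovaries. None of the 10 genes passed edgeR's adjusted p of 0.05, a threshold that 0.00528% of all tested genes (1 gene) passed. Cd38, Nampt, Nmnat1 and Parp1 (4 of 10) had an unadjusted p under 0.05 and no overlap between the groups, where 16.3% and 18.6% of all genes did. DESeq2 called the same 4 of 10 genes, against 4.79% of genes. Only Nampt also passed a 1.5-fold change with an unadjusted p under 0.05, a rule met by 7.96% of genes. The median log2 fold change was -0.20 over the members and -0.021 over all tested genes. Aged ovaries are part of both this comparison and the first, so that their values are not independent.

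Nampt was 0.383 of its Aged level in Aged+CF, a log2 difference of -1.38 (SE 0.39, edgeR adjusted p = 0.177, DESeq2 adjusted p = 0.0178). Its size rested on single Aged ovaries. It was -0.71 without Aged 33 (edgeR adjusted p = 0.274) and -1.76 without Aged 34, where it passed the test (0.0216) in a fit that called 3.44% of genes. Cd38 differed by -0.54 (SE 0.13, edgeR adjusted p = 0.161, DESeq2 0.00642). Nmnat1 differed by -0.57 (SE 0.15, edgeR adjusted p = 0.169, DESeq2 0.0185). Parp1 was the 1 of these genes with a higher level in Aged+CF, by 0.40 (SE 0.10, edgeR adjusted p = 0.164, DESeq2 0.00572). The other 6 genes lay between -0.56 (Bst1, 95% interval -1.48 to 0.35) and 0.29 (Nmnat3, -0.14 to 0.72), with every interval covering 0. For Parp2 the interval of -0.31 to 0.14 was narrow, while that for Nmnat2, -1.59 to 0.98, was wide.

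The last comparison, Aged+CF against Control, asked how far treated aged ovaries stood from young ones. edgeR called none of the 10 genes, against 0.179% of all genes, and DESeq2 called Cd38 alone, against 3.88%. Cd38, Nmnat3 and Parp1 (3 of 10) had an unadjusted p under 0.05, as did 14.3% of genes, and none of them reached 1.5-fold, which with that p was met by 7.69%. The groups did not overlap for Cd38, Bst1 and Nmnat3, all higher in Aged+CF, against 21.9% of genes. Cd38 was 1.36-fold the Control level (log2 0.44, SE 0.12, edgeR adjusted p = 0.159, DESeq2 0.0214). Nmnat3 was 1.48-fold (0.56, SE 0.18, edgeR adjusted p = 0.214, DESeq2 0.0688). Parp1 differed by -0.24 (SE 0.09, edgeR adjusted p = 0.29). Nampt differed by 0.11, with a 95% interval from -0.69 to 0.91. The median was 0.14 over the members and -0.028 over all genes.

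The balance between members was also read within each ovary. The log2 ratio of Nampt to Cd38 counts, a synthesis gene against a consumption gene, was 2.20 to 2.65 in Control, 1.82 to 3.60 in Aged and 2.01 to 2.31 in Aged+CF. The ranges overlapped in all 3 comparisons. The differences were 0.287 for Aged against Control (exact permutation p = 0.571), -0.622 for Aged+CF against Aged (exact p = 0.4) and -0.335 for Aged+CF against Control (exact p = 0.114, adjusted 0.257). The ratio of Bst1 to Cd38 differed by -0.129 with age (exact p = 0.714). Of the summed FPKM of the 3 Nmnat genes, Nmnat1 made up 66.9% ± 6.47 (SD, n = 4) in Control, 66.6% ± 5.77 (n = 3) in Aged and 54.1% ± 5.22 (n = 3) in Aged+CF. The Nmnat3 share was 23.7 to 32.8% in Control, 24.6 to 30.1% in Aged and 35.8 to 45.6% in Aged+CF, so that Aged+CF did not overlap either other group. The shares were not tested. Nmnat1 CPM were lower in every Aged+CF ovary than in any Aged ovary, while Nmnat3 CPM overlapped between these groups. With GENCODE exon lengths the Nmnat3 means were 27.3%, 26.6% and 39.2% in the same order. Nmnat2 made up 4.82%, 5.75% and 5.56%.

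**Figure D5:**
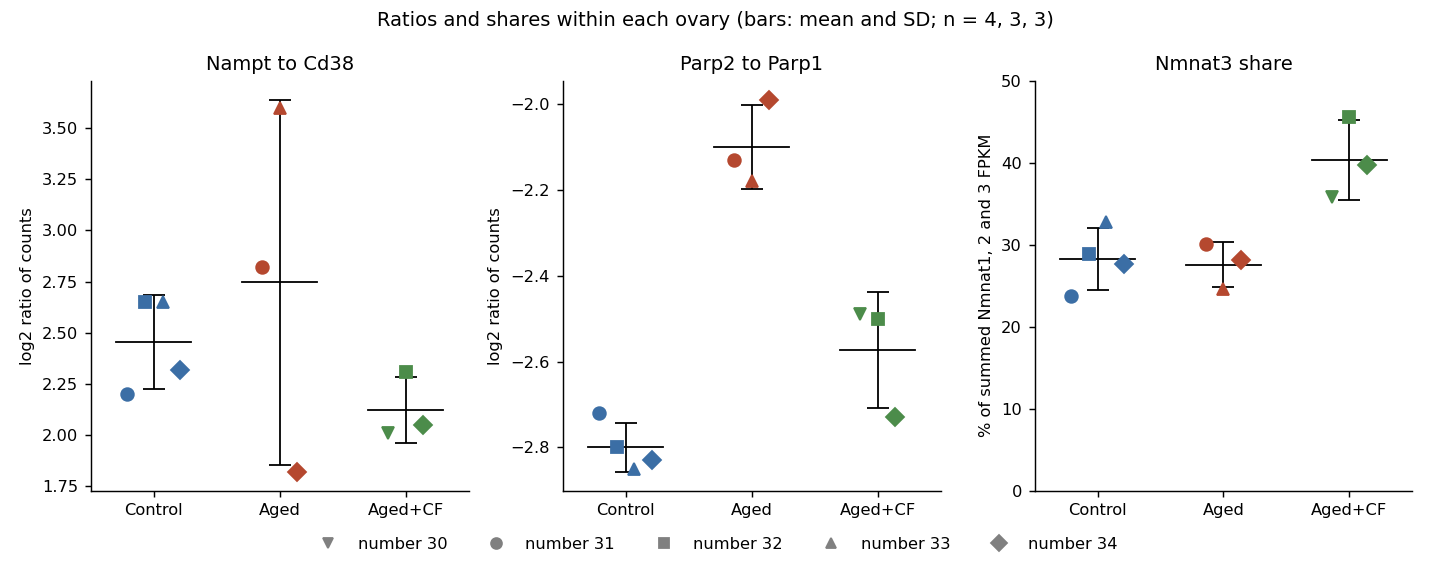
Log2 ratios of counts of Nampt to Cd38 and of Parp2 to Parp1, and the Nmnat3 percentage of the summed FPKM of the 3 Nmnat genes, in each ovary with group means and SDs (Control n = 4, Aged n = 3, Aged+CF n = 3). Nampt to Cd38 overlaps in all groups, Parp2 to Parp1 is highest in Aged, and the Nmnat3 share is highest in Aged+CF.

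Other genes of NAD metabolism were read from a list of 48, of which 49 table entries were found (Nnt has 2) and 43 were tested. In Aged against Control 5 of 43 passed edgeR, 3 higher and 2 lower, against 15.4% of all genes, and 13 of 43 had an unadjusted p under 0.05, against 31.6%. DESeq2 called 7 of 43, against 22.6%. Without Aged 34, edgeR called 10 of 43 in a fit that called 22.6% of all genes. The 5 added were Nadk, Parp12, Sirt5, Sirt7 and Slc12a8. Nmrk1, a kinase that makes NMN from nicotinamide riboside, rose from 5.14 to 6.36 CPM in Control to 9.48 to 13.6 CPM in Aged (log2 1.001, SE 0.21, edgeR adjusted p = 0.0148). Pnp, which splits nucleosides including nicotinamide riboside, rose by 0.74 (SE 0.18, adjusted p = 0.0243), a call lost without Control 31 or 34. Kmo, an enzyme of the de novo route from tryptophan, rose by 2.14 (SE 0.47, adjusted p = 0.0174) from means of 0.874 to 3.88 CPM, a call lost without Control 32 or 34. Nadk, the NAD kinase, differed by 0.61 (edgeR adjusted p = 0.0846, DESeq2 0.0396), and passed edgeR at 0.79 (0.0364) without Aged 34. Tnks, a tankyrase of the PARP family, fell by 0.64 (SE 0.12, adjusted p = 0.0114), 1 of 14 further PARP genes to pass. The other tankyrase, Tnks2, differed by -0.07 (edgeR adjusted p = 0.599). Without Aged 34, Parp12 passed as well (-0.32, edgeR adjusted p = 0.0423), and without Aged 31 so did Parp10. None of the 7 sirtuins, the NAD-dependent deacylases, passed edgeR or DESeq2 over all 10 ovaries in any comparison. At an unadjusted p under 0.05 there were 2 of 7 for age, against 31.6% of all genes, and 0 in both other comparisons. Without Aged 34, edgeR called Sirt5 (0.52, adjusted p = 0.0223) and Sirt7 (0.41, 0.033) higher with age. Over all 10 ovaries, limma on FPKM called Sirt3 and Sirt6 with age, whose edgeR differences were -0.32 and -0.23. That limma fit shifted the median of all genes by -0.14. Over all ovaries the median sirtuin difference with age was -0.07.

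In Aged+CF against Aged none of the 43 passed edgeR, 6 had an unadjusted p under 0.05, against 16.3% of all genes, and DESeq2 called 3 (Kmo, Pnp and Tnks), against 4.79%. Kmo measured 1.91, 6.21 and 3.53 CPM in Aged 31, 33 and 34 and 0.516, 0.402 and 0.938 CPM in Aged+CF 30, 32 and 34, from 7 to 20 reads in the latter. The difference was -2.61 (SE 0.53, edgeR adjusted p = 0.15, DESeq2 0.00118), and it passed edgeR at -2.70 (0.0428) without Aged 34. Pnp and Tnks differed by -0.73 (edgeR adjusted p = 0.169) and 0.55 (0.161). Nadsyn1, which completes NAD from the nicotinic acid route, lay between 11.2 and 15.6 CPM in all ovaries. Nnmt, which methylates nicotinamide, differed by 0.17 with age and -0.18 with the extract (edgeR adjusted p = 0.759 and 0.822). Qprt, the entry enzyme of the de novo route into NAD, had 5 to 35 reads per ovary. Nmrk2, Tdo2, Ido1, Ido2, Kynu and Acmsd had at most 22 reads in any ovary and were not tested.

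Nnt, the mitochondrial transhydrogenase that exchanges electrons between NAD and NADP, was counted under a pair of identifiers whose models share 3339 exonic bases on the same strand, so its values are uncertain. The entry ENSMUSG00000116207 fell with age by 0.90 (SE 0.18, edgeR adjusted p = 0.0125) and was lower in Aged+CF than in Control by 1.24 on the log2 scale (-1.24, SE 0.18, adjusted p = 0.0326), the 1 call among the 43 in that comparison, against 0.179% of all genes, where DESeq2 called 2 (also Nmrk1), against 3.88%. That call was lost in 7 of 10 fits that each left out 1 ovary, namely without Control 32, 33 or 34, Aged 31, or any Aged+CF ovary, with adjusted p up to 0.114. The entry ENSMUSG00000025453 differed by -1.61 with age (edgeR adjusted p = 0.0718) and passed without Control 33 (-1.87, 0.0461). It measured 45.4 and 36.2 CPM in Control 31 and 32 against 10.5 and 11.4 in Control 33 and 34. In the same ovaries ENSMUSG00000116207 went the other way, with 106.0 and 111.6 CPM in Control 31 and 32 against 134.7 and 144.8 in Control 33 and 34. How reads were shared between the entries was not tested. The C57BL/6J strain is known to carry a deletion within Nnt.

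The genes whose log2 CPM followed the 3 age-changed members most closely were ranked over the 10 ovaries among 16744 genes with a mean of at least 1 CPM. These correlations describe the 10 ovaries, which share group differences and marker content. For Cd38 they were Gng12 (r = 0.989), Asah1 (0.976) and Hao2 (0.972), with means of 89.8, 123 and 72.2 CPM in Control and 128, 225 and 193 CPM in Aged. For Nampt they were Pgam1 (0.99), Shtn1 (0.989) and Hsdl2 (0.987), with Control means of 178, 37.8 and 43.8 CPM and Aged means of 258, 67.4 and 52.4 CPM. For Parp1 they were Pygb (0.992), Fsd1 (0.987) and Rfc1 (0.985), which had Control means of 224, 2.74 and 73.7 CPM and Aged means of 135, 0.94 and 59.1 CPM.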

How the data were processed

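Ovary RNA of 10 samples was analysed from a deposited table of counts and FPKM per gene and sample. The authors made the raw counts and FPKM; the submitters' notes name TopHat, Cufflinks 2.1.1 and build GRCm38.p4, and the counting tool and its use of strand are not given in the sources used here. The deposited FPKM equal counts divided by a fixed gene length and the column total. Counts were fitted with edgeR 4.0 (R 4.3; TMM, filterByExpr, quasi-likelihood F test, all 10 ovaries, 1 mean per group), adjusted by Benjamini-Hochberg over 18956 genes, with DESeq2 1.42 and limma 3.58 on log2(FPKM + 0.1) as alternatives. CPM are TMM-scaled. Ratios used counts plus 0.5 and two-sided exact permutation tests. No libraries were duplicates. Positions come from GENCODE M21 and promoters from RefSeq. Every member is named. Of the other NAD genes, those edgeR called over all ovaries in any comparison are named, with Nadsyn1, Nmrk1, Qprt and Nnmt. Slc12a8, Tnks2 and those that changed call without a library that stands apart were added after their values were seen. For likeness, the 3 genes with the highest Pearson r are named. The members and lists were chosen with earlier results of these data known. On simulated counts for Aged against Control, 47.5% of 2-fold and 95% of 3-fold changes were recovered. For Aged+CF against Aged the shares were 34.3% and 97%. These shares were split by fold only, and no change below 2-fold was simulated. Changed genes were drawn above a floor of mean reads, so scarce genes such as Bst1, Sarm1 and Nmnat2 were not covered. All genes and groups were simulated with the same spread. Aged libraries, which enter both simulated comparisons, had the widest spread. Their biological coefficient of variation was 0.378, against 0.209 (Control) and 0.193 (Aged+CF). The shares may therefore overstate what was recoverable in these data. The depth, 15761789 to 21318254 reads per ovary, limits the precision of genes under 100 reads.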

Additional observations from a re-analysis of the deposited data

How the results depend on the processing

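The 3 or 4 ovaries per group limited every test, and Bst1, Sarm1 and Nmnat2 had few reads. The numbers in the sample titles showed no pairing of the samples (correlations of deviations from -0.185 to 0.153), and 1 of 3 Aged ovaries correlated best with its own number in Control. With 3 or 4 ovaries per group, this check cannot exclude a pairing. With the number as a replicate block, 0 members and 0 other NAD genes were called in Aged against Control and 0 other NAD genes in Aged+CF against Control, with edgeR adjusted p = 0.0593, 0.0593 and 0.0911 for Cd38, Parp1 and Nampt with age. At an unadjusted p under 0.05 these 0 counts were 3 of 10 members and 9 of 43 other NAD genes with age, against 4748 of 18956 genes. For Aged+CF against Control the count was 4 of 43 other NAD genes, against 1974 of 18956 genes. Over all genes the block moved the calls with age from 2927 to 80. The block estimates more terms from the same 10 ovaries, so a lost call cannot be told apart from lost power. The block also turned Naprt in Aged+CF against Aged to -0.13 and Nmnat2 in Aged+CF against Control to -0.073. DESeq2 called 4 members in Aged+CF against Aged and 1 in Aged+CF against Control, and 3 and 2 other NAD genes. The rule of 1.5-fold with an unadjusted p gave 1 member in Aged+CF against Aged, and 8, 4 and 3 other NAD genes in the 3 comparisons. Signs near 0 turned for Sarm1 with age (0.0124 with DESeq2 size factors, 0.0193 in DESeq2), for Parp2 with limma (-0.0678 with age, 0.0135 for Aged+CF against Aged) and in Aged+CF against Control (0.0023 with size factors, 0.000765 with only those groups, 0.0025 in DESeq2), and for Naprt with age in limma (-0.0174). The limma fit shifted the median of all genes by -0.14 with age and 0.1 with the extract.

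Leaving out 1 ovary at a time, the members called were 2 to 4 with age, 0 to 1 for Aged+CF against Aged (1 without Aged 34) and 0 to 0 for Aged+CF against Control. The other NAD genes called were 3 (without Control 34) to 10 (without Aged 34), 0 to 1 (Kmo, without Aged 34) and 0 to 1 (Nnt). Log2 fold changes ran from -0.026 to 0.23 for Naprt with age, -0.122 to 0.215 for Naprt in Aged+CF against Aged, -0.0063 to 0.274 for Naprt in Aged+CF against Control, -0.699 to 0.0054 for Nmnat2 in Aged+CF against Aged, -0.0487 to 0.0109 for Parp2 in Aged+CF against Control and -0.0866 to 0.133 for Sarm1 with age. The Nampt to Cd38 ratio ran from -0.139 to 0.75 with age, -1.09 to -0.196 and -0.429 to -0.27, the Bst1 to Cd38 ratio from -0.405 to 0.281, -0.297 to 0.389 and -0.19 to 0.0964, and the Parp2 to Parp1 ratio from 0.641 to 0.737, -0.512 to -0.392 and 0.185 to 0.305. Over all fits of the members, 444 fold changes kept their direction and side of the threshold. Another 22 reversed direction, 7 newly passed the threshold and 7 no longer passed it. The GENCODE lengths were chosen after seeing the data.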
